A study of Homo sapiens with 96 samples.

Results

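The 42 genes described here were chosen by a rule from 60605 gene IDs measured in K562, a human line of chronic myeloid leukaemia origin: their RNA was higher after degradation of KDM2B and nearly level after degradation of BCOR. For each gene the rule took the log2 ratio of the mean CPM (a count scaled by the total of its library) at 72 h of ligand to that in untreated cells, with 0.5 CPM added to each mean. A gene was taken if this ratio was at least 0.8, with at least 2 CPM at 72 h, in the KDM2B time course and lay between -0.2 and 0.2 in the BCOR time course. Of the 42 genes, 5 stood on lists of stress-response genes (STC2, KLHL24, HERPUD1, SLC38A2 and PCK2) and are called stress genes here. The other 37 are treated apart from them. In all, 36 of the 42 are protein-coding.

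KDM2B and BCOR are subunits of PRC1.1, a variant Polycomb complex. KDM2B binds unmethylated CpG-rich DNA through its CxxC zinc finger and brings the complex to CpG islands, where its RING-finger ligase ubiquitinates histone H2A, a mark tied to repression. BCOR joins KDM2B to the PCGF1 and RING subunits. The integrated stress response is a separate programme, in which the transcription factor ATF4 raises genes of amino acid uptake and synthesis when translation is slowed.

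The data are RNA-seq counts of 96 libraries in 5 tables, 3 libraries in each of 32 groups, all of K562 cells. In the KDM2B-mAID and BCOR-mAID lines a degron lets the ligand 5PhIAA trigger destruction of the tagged protein, and cells were left untreated or given ligand for 2, 8, 24 or 72 h. The construct table, labelled for KDM2B mutants, holds cells with EV, LF, SF, dLRRS or dCxxC, names the labels do not spell out, each with DMSO or ligand. The inhibitor table holds KDM2B-mAID cells given DMSO, ligand, GSK343 (which inhibits EZH2) or ligand plus GSK343. The J2_7 table repeats these 4 treatments in KDM2B-mAID cells, mAID cells for short, and in KDM2B-mAID_J2_7 cells, called J2_7 cells. That table is labelled for a JARID2 and AEBP2 double knockout and wild type, without saying that J2_7 is the knockout. Whether a line is 1 clone, whether replicates are separate cultures, the doses, and the treatment times outside the time courses are not stated in the labels, so p-values measure the spread between these libraries, which may be technical. In such bulk libraries fewer cells with a transcript and less of it per cell cannot be told apart.

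Gene counts per library totalled 5806624 to 18519442 for BCOR, 10429112 to 19910440 for KDM2B, 2346542 to 22611557 for the constructs, 4268383 to 24545679 for the inhibitor and 782905 to 12740495 for J2_7. A list of 9 K562 identity genes, among them fetal and embryonic globins, summed to at least 1856 CPM in every library, against at most 49.9 CPM for 7 lymphoid, 201 CPM for 5 myeloid and 96.3 CPM for 8 fibroblast and epithelial genes. A degron removes protein, so KDM2B RNA does not check its loss: it was 68.6 to 82.7 CPM in untreated and 81.4 to 82.9 CPM in 72 h libraries of the KDM2B table. With DMSO it was 81.2 to 84.8 CPM in EV, 2198 to 2480 in LF, 870 to 920 in SF, 2740 to 3086 in dLRRS and 3562 to 3656 CPM in dCxxC cells.

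Promoter windows, 250 bases before to 50 bases after a RefSeq start on GRCh38.p14, were matched for 30 of the 42 genes. Those not matched are EEF1A2, LARGE2, PPM1J, RND2, SLC2A4, HBA1, LONRF1 and 5 pseudogenes or transcripts without a gene name. For a gene with several windows, the one with most CpG pairs was taken. A CpG observed-to-expected ratio of at least 0.6 was found in 27 of 30 genes, against 87.8% of 10296 tested in the KDM2B table. The median was 28.5 CpG pairs per window against 28, so these windows were close to those of expressed genes at large. Stretches of 120 bases before the start are shown for 3 genes that recur below, since CpG pairs are what the CxxC finger of KDM2B reads. Capitals mark CpG pairs, and each runs 5′ to 3′ on the gene's strand (RCN3, chr19:49527883-49528002, plus strand; FZD8, chr10:35642297-35642416, minus strand; NAT8L, chr4:2059207-2059326, plus strand).
RCN3: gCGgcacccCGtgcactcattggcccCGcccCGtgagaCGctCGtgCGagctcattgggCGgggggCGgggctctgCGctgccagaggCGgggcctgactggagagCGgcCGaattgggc
FZD8: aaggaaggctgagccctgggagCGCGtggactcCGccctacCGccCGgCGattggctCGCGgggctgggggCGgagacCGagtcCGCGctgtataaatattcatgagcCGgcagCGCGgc
NAT8L: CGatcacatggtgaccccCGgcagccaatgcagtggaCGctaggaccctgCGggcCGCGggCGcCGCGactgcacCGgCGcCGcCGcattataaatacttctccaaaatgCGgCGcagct
They hold 13, 15 and 15 CpG pairs. The whole windows of these 3 genes hold 34, 31 and 49, all above the median of 28.5 over the 30 genes. TUBB4A, which recurs below too, has windows of 5 and 27 CpG pairs.

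The letters TGATGNAA, the core of an element that C/EBP and ATF proteins such as ATF4 can bind, were searched on both strands of each window. Counting any window of a gene, they stood in 3 of the 30 genes, the stress gene HERPUD1, FUT1 and IL20RB. The shares were 2.68% of the tested genes and 4.46% of all 27305 genes with a window. For FUT1 the match is in a window with 3 CpG pairs, not in the one with 30 counted above. The 30-base stretches that hold it are shown for all 3 genes. Capitals mark the match, which for HERPUD1 is on the opposite strand (FUT1, chr19:48755459-48755488, minus strand; HERPUD1, chr16:56931955-56931984, plus strand; IL20RB, chr3:136957896-136957925, plus strand).
FUT1: ctcctcctcccTGATGCAAtcctggtgttt
HERPUD1: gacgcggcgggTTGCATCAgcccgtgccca
IL20RB: ccactccctgcTGATGCAAcatctgggttt
A match is a run of letters and not a site shown to be bound.

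The values that chose the genes are a description and carry no test. The KDM2B ratio ran from 0.80 to 2.04 with a median of 1.01, and the median BCOR ratio was 0.05. Highest were RCN3, a calcium-binding protein of the endoplasmic reticulum, at 2.04, LARGE2, a glycosyltransferase of dystroglycan, at 1.57, and MAP3K21, a mixed-lineage kinase, at 1.49. FUT1, which makes the H blood group antigen, had 1.42, PRKD1, protein kinase D1, 1.39, TUBB4A, a beta-tubulin of the nervous system, 1.34, and PDK4, an inhibitor of pyruvate dehydrogenase, 1.33. TMEM163 had 1.20, KLHL29 1.20, RND2 1.18, MYCL, the L-Myc transcription factor, 1.16, the protease gene CTSF 1.08, the cytokine gene TSLP 1.05, TRIM71, an RNA-binding ubiquitin ligase, 1.03, and the Wnt receptor gene FZD8 0.99.

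The stress genes were 1.23 for STC2, 1.11 for KLHL24, 1.11 for HERPUD1, 1.04 for SLC38A2 and 0.91 for PCK2 by the same ratio. They were abundant, at 37.2 to 825 CPM at 72 h, whereas 28 of the other 37 were under 10 CPM, with a median of 4.97 CPM and a highest level of 139 CPM. HBA1, an alpha-globin gene, is uncertain, because its reads can be shared with the near-identical HBA2. It was at 2.41, 0.484 and 2.22 CPM in untreated KDM2B libraries but at 677, 684 and 666 CPM in mAID cells with DMSO, a table made by another library method and counting.

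**Figure D1:**
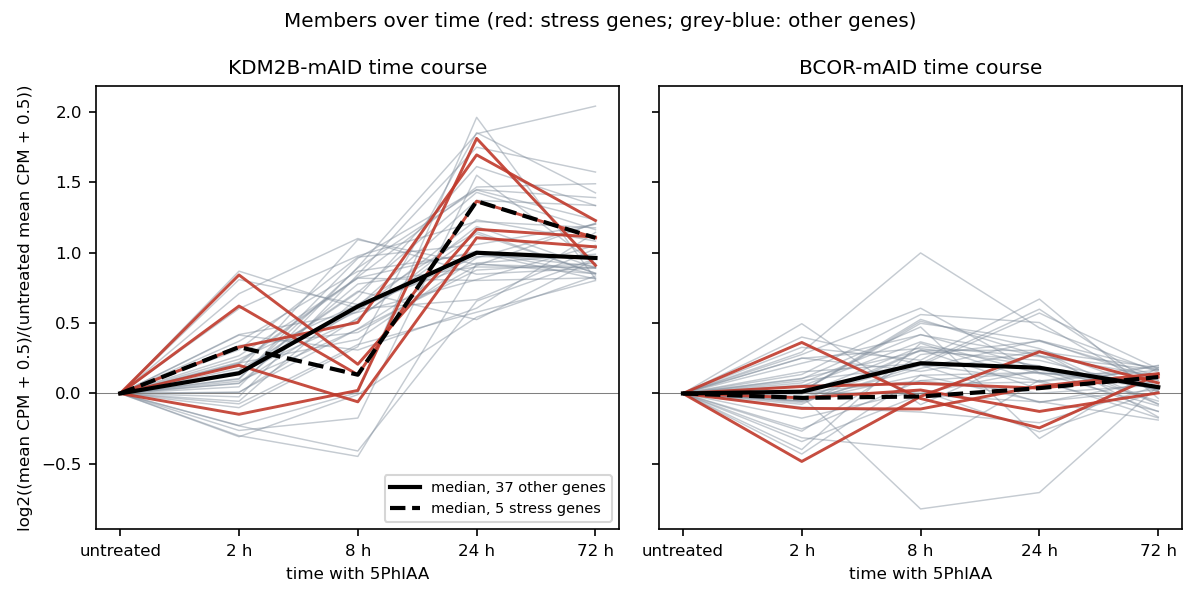
Log2 ratio of mean CPM to untreated cells, 0.5 CPM added to each mean, of each of the 42 genes over hours with 5PhIAA, in KDM2B-mAID and BCOR-mAID cells, with the medians of the 5 stress genes and of the 37 other genes drawn as thick lines (means of 3 libraries). In KDM2B-mAID cells the medians at 8 h were 0.13 for stress and 0.62 for other genes, and at 24 h 1.37 and 1.0.

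Most genes that passed the KDM2B thresholds did not meet the BCOR condition. Of 402 such genes, 358 had a BCOR ratio above 0.2, 2 below -0.2 and 42 between, or 10.4%, while 62.5% of the 11643 gene IDs with at least 2 CPM at 72 h lay in the band. The upper edge passed through a continuous run of values, with MYCL at 0.20, NUAK2, an AMPK-related kinase, at 0.20 and TMEM163 at 0.18 inside it and CEBPB at 0.21, TNFRSF10B at 0.23 and PIM1 at 0.23 outside. At the lower edge TXNRD3 at -0.17, ABCA2 at -0.13 and PRKD1 at -0.13 were the named genes nearest inside, and CAMKV at -0.44 and SLC17A7 at -0.45 those outside.

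By the KDM2B ratio, HBA1 at 0.80, IL20RB at 0.81 and GLIPR2 at 0.82 were just inside, and FMNL2 and ARG2, both rounding to 0.80 from below the threshold, and NLRX1 at 0.79 just outside. By the level at 72 h, among genes with a gene name, KLHL29 at 2.15, PDK4 at 2.23 and TMEM163 at 2.59 CPM were just inside, and ANKFN1 at 1.90, FERMT1 at 1.35 and H4C14 at 1.28 CPM just outside.

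By BCOR ratio the stress genes are the low end of a larger group, which the band of the rule fixed in advance. Of the stress-list genes 36 passed the KDM2B thresholds, and the other 31 had BCOR ratios above the band, from 0.21 for CEBPB to 1.28 for NDRG1. The 5 in the band had BCOR ratios of 0.00 for SLC38A2, 0.07 for STC2, 0.12 for HERPUD1, 0.14 for KLHL24 and 0.14 for PCK2. These 5 of 36 stand beside 42 of 402 for all genes past the KDM2B thresholds, a difference not tested. By list, 34 of 62 genes of the integrated stress response and ATF4 targets passed the KDM2B thresholds and 4 are among the 42. Over all genes, 402 of the 11643 gene IDs with at least 2 CPM at 72 h passed them. The list of 20 genes of the unfolded protein response gave 1, HERPUD1, which acts in degradation of proteins from the endoplasmic reticulum, and the list of 28 erythroid genes gave HBA1.

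A level ratio did not always mean an expressed gene. PRKD1, KLHL29 and TRIM71 had means under 0.5 CPM in both untreated and 72 h BCOR cells. PRKD1 was at 0.138, 0.054 and 0.0765 CPM in untreated BCOR libraries and at 0.731, 0.887 and 0.985 CPM in untreated KDM2B libraries. At the other extreme RCN3 was at 8.16, 7.67 and 8.19 CPM in untreated BCOR libraries, at 1.02, 0.645 and 0.82 CPM in untreated KDM2B libraries and at 4.85, 4.67 and 5.4 CPM after 72 h of ligand in the latter. The untreated BCOR libraries were thus all above the 72 h KDM2B libraries for RCN3. In all, 10 of the 42 genes had a mean in untreated BCOR cells at or above their 72 h KDM2B mean, and 30 had a higher untreated mean in BCOR than in KDM2B cells. These are separate tables of separate lines, so the levels stand side by side and were not tested. The rule used these same means. A high KDM2B ratio favours a low untreated KDM2B mean, so the choice itself favours the count of 30. The shares over all genes were not counted.

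**Figure D2:**
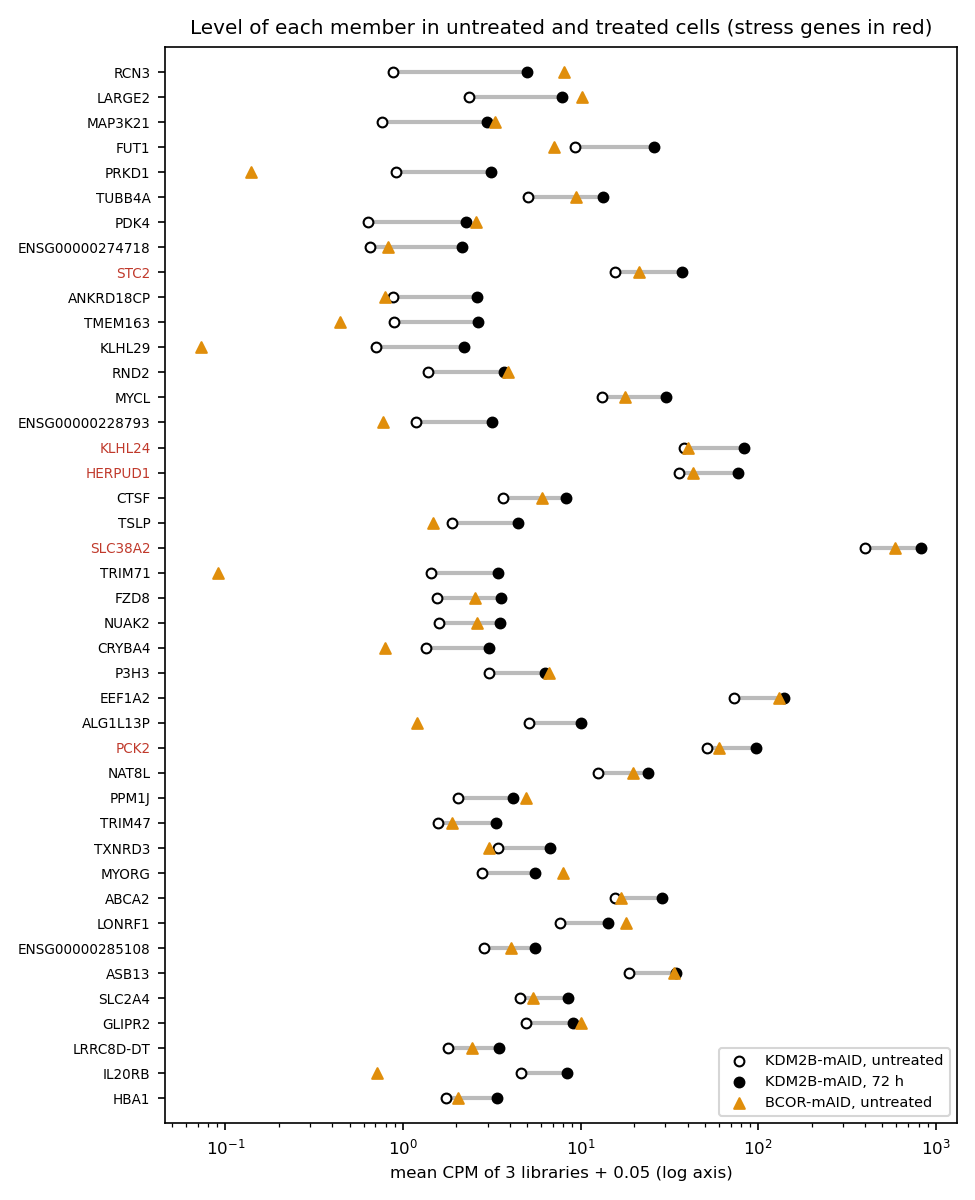
Mean CPM of 3 libraries on a log axis for each of the 42 genes in untreated and 72 h KDM2B-mAID cells and in untreated BCOR-mAID cells. For 10 genes, RCN3 among them, the untreated BCOR-mAID mean is at or above the 72 h KDM2B-mAID mean. The rule used these means, so the count is a description only.

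Membership moved with single libraries. The rule gave 34 genes without the third 72 h KDM2B library and 58 without the second untreated one (numbered in column order), and 11 of the 42 genes, SLC38A2 the 1 stress gene among them, were kept under all 14 alternatives tried. The third 72 h library was the highest for each stress gene: PCK2, the mitochondrial phosphoenolpyruvate carboxykinase, was at 68.9, 76.9 and 145 CPM, and left the set without it. Without BCOR untreated replicate 3, the highest untreated library for all 5 stress genes, STC2, KLHL24, HERPUD1 and PCK2 left the set.

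Between 2 h and 24 h of ligand in the KDM2B table, libraries the rule did not use, most of the 42 genes rose. A gene is called here at an adjusted p under 0.05 in edgeR's quasi-likelihood test, Benjamini-Hochberg adjusted over all genes tested, with an absolute log2 fold change above 0.585. Of the 42, 30 were called higher at 24 h and 0 lower, against 9.64% of 14524 genes called higher. They were 4 of 5 stress genes and 26 of 37 others, and the median log2 fold change was 0.92 against 0.01 over all genes. The calls of KLHL29, RND2, TRIM71 and CRYBA4, a lens crystallin gene, ended when some single library was left out. The genes were chosen as higher at 72 h of the same time course, so the choice favours a share above that over all genes. The libraries the rule used also entered the fit, its filter and its estimate of spread.

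Of the stress genes, PCK2 had 48.7, 48.6 and 41.5 CPM at 2 h and 210.1, 176 and 158 CPM at 24 h, a log2 fold change of 1.93 ± 0.23 (SE; adjusted p = 8.0e-05). All 24 h libraries were far above all 2 h libraries, and the 72 h libraries given above had come down again. STC2, a secreted stanniocalcin, had 21.1, 19.7 and 18.4 CPM at 2 h and 52.2, 51.4 and 51.2 CPM at 24 h (1.34 ± 0.10, adjusted p = 2.3e-08). SLC38A2, a transporter of small neutral amino acids, had 486, 445 and 448 CPM and then 769, 880.4 and 938 CPM (0.86 ± 0.10, adjusted p = 4.1e-06). Neither gene's groups overlapped.

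HERPUD1 had 52.3, 55.8 and 57.1 CPM at 2 h and 91.6, 93.9 and 92.2 CPM at 24 h, again without overlap (0.70 ± 0.12, adjusted p = 0.00013). KLHL24, an adaptor of a ubiquitin ligase, was not called, with 70.8, 67 and 69.8 CPM at 2 h and 84.5, 80.3 and 95.5 CPM at 24 h (0.28 ± 0.11, adjusted p = 0.061). Its 2 h libraries already lay above the untreated ones, at 37.7, 40.3 and 37.2 CPM, a comparison not tested because the rule used the untreated libraries.

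Among the other 37, IL20RB, a receptor chain for cytokines of the IL-20 family, had the largest fold change, from 4.65, 4.03 and 2.77 CPM at 2 h to 23.7, 19.6 and 14.3 CPM at 24 h (2.31 ± 0.36, adjusted p = 0.00033). Its 72 h libraries, at 5.18, 5.63 and 14.3 CPM, were near the untreated 5.26, 3.15 and 5.25 CPM except for the third. FUT1 had 9.07, 8.71 and 10.1 CPM untreated, 9.38, 9.67 and 6.84 CPM at 2 h, 36.7, 34.7 and 33.2 CPM at 24 h (1.98 ± 0.19, adjusted p = 1.1e-06) and 18.6, 21.8 and 37 CPM at 72 h. The third 72 h library again stood above the other two, and unlike for IL20RB all of them were above the untreated libraries.

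RCN3 and LARGE2 were about as high at 72 h as at 24 h. RCN3 had 0.962, 0.953 and 0.707 CPM at 2 h and 4.07, 4.05 and 4.71 CPM at 24 h (2.25 ± 0.22, adjusted p = 2.6e-07), below or near its 72 h values. LARGE2 had 1.92, 2.34 and 2.47 CPM at 2 h, 7.37, 8.49 and 10.8 CPM at 24 h (1.92 ± 0.19, adjusted p = 4.1e-07) and 8.53, 7.49 and 7.42 CPM at 72 h. PDK4, at low level, had 0.401, 0.22 and 1 CPM at 2 h and 2.11, 2.26 and 4.05 CPM at 24 h (2.22 ± 0.48, adjusted p = 0.0016).

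As early as 8 h, against 2 h, 6 genes were called higher, against 2.86% of genes, and 1 lower, against 0.64%. Those higher were RCN3, LARGE2, PRKD1, PPM1J, a protein phosphatase, TRIM47, a tripartite-motif protein, and an lncRNA without a gene name, and 0 of the 5 stress genes. Of the stress genes 0 were higher and 3 lower at an unadjusted p under 0.05, and DESeq2 called 0 higher and 1 lower. RCN3 had 1.86, 2.06 and 2.01 CPM at 8 h (1.14 ± 0.24, adjusted p = 0.0035) and TRIM47 went from 1.6, 1.98 and 1.71 to 3.63, 3.72 and 4.12 CPM (1.05 ± 0.21, adjusted p = 0.0025). The calls of PRKD1, PPM1J and the lncRNA ended without some single library.

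The gene called lower was KLHL24, at 47.2, 40.3 and 45.6 CPM at 8 h (-0.70 ± 0.12, adjusted p = 0.00074). With the values above, it was high at 2 h, near the untreated level at 8 h and high again at 24 h and 72 h. HERPUD1 had 37.2, 34.6 and 35 CPM untreated and 40.7, 41 and 35.7 CPM at 8 h, below all its 2 h libraries, but was not past the fold threshold (-0.54 ± 0.12, adjusted p = 0.006). The comparisons of 8 h and 24 h share the 2 h libraries.

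In the BCOR table, 1 of 39 tested genes was called higher at 24 h than at 2 h, against 2.48% of 14110 genes, and 1 lower, against 0.758%. STC2 was higher, with 15.3, 12.4 and 17.2 CPM at 2 h and 26.2, 21.8 and 30.3 CPM at 24 h (0.73 ± 0.17, adjusted p = 0.0089). The groups did not overlap, and the untreated libraries, at 20.3, 17.3 and 25.8 CPM, overlapped the 24 h ones. KLHL24 was lower, with 48.8, 49.4 and 57.5 CPM at 2 h and 30.8, 34.6 and 36.3 CPM at 24 h (-0.67 ± 0.14, adjusted p = 0.0046), and was no longer called without 2 h replicate 3.

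At 8 h against 2 h in the BCOR table, 0 of 39 were called higher, against 1.18% of genes, and 0 lower, against 0.142%. At an unadjusted p under 0.05, 11 were higher and 3 lower, and DESeq2 called 0. With the replicate number as a block, 1 was called, TRIM47 (0.76, adjusted p = 0.041). It had 2.25, 2.28 and 2.54 CPM at 2 h and 4.3, 3.62 and 4.56 CPM at 8 h, without overlap (0.76 ± 0.22, adjusted p = 0.053, without the block). By 72 h it was at 2.1, 2.46 and 1.71 CPM, near the untreated values of 1.66, 1.62 and 2.22 CPM. The median ratio to untreated BCOR cells over the other 37 was 0.21 at 8 h, 0.18 at 24 h and 0.04 at 72 h, a description with no test, since the rule used the untreated libraries and its band set the 72 h value.

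The wider stress list gave the same contrast of values between the time courses. Of its integrated stress response genes, 48 of 59 tested were called higher at 24 h than at 2 h in the KDM2B table, against 1 higher and 1 lower in the BCOR table. The difference between the tables was not tested, and the list was compiled with earlier results of these data known. With ligand in EV cells, 0 of 59 genes of this list were called higher and 0 lower, against 2.95% of all genes called higher.

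With ligand in EV cells, 15 of 42 genes were called higher and 0 lower, against 2.95% of 15910 genes called higher. They were 15 of 37 others and 0 of 5 stress genes, of which 1 was higher at an unadjusted p under 0.05 and DESeq2 called 0. STC2 had 17, 15.4 and 14.9 CPM with DMSO and 17.9, 19.8 and 19.7 CPM with ligand (0.31 ± 0.11, adjusted p = 0.048), under the fold threshold. Of the 15 calls, 8 ended when some single library was left out.

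FZD8 had the largest fold change in EV cells, from 0.978, 0.973 and 0.355 CPM with DMSO to 3.41, 2.52 and 2.38 CPM with ligand (1.66 ± 0.34, adjusted p = 0.00075). EEF1A2, a tissue-restricted form of translation elongation factor 1A, had 24.7, 22.6 and 22.5 CPM with DMSO and 45.2, 55.6 and 57.2 CPM with ligand (1.24 ± 0.08, adjusted p = 2.2e-14). Neither gene's groups overlapped. RCN3 had 1.32, 1.33 and 1.06 CPM and 3.84, 3.84 and 1.85 CPM (1.25 ± 0.36, adjusted p = 0.018), and its adjusted p reached 0.23 with 1 library left out.

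LARGE2 had 4.09, 3.36 and 3.69 CPM with DMSO and 2.98, 10.2 and 7.88 CPM with ligand (1.19 ± 0.19, adjusted p = 1.3e-05). Its groups overlapped, since the first ligand library, the shallowest of the table at 2346542 counts, lay below all DMSO libraries.

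In dLRRS cells, 21 of 42 were called higher with ligand and 0 lower, against 3.19% of genes called higher, and 10 of these calls ended without some single library. EEF1A2 led, from 2.81, 2.98 and 1.61 CPM with DMSO to 12.3, 12.5 and 15.3 CPM with ligand (2.47 ± 0.14, adjusted p = 2.2e-17). MYORG, a glycosidase, had 2.2, 1.42 and 2.41 CPM and then 4.74, 4.93 and 4.79 CPM (1.24 ± 0.20, adjusted p = 1.5e-05). The calls of RCN3 (1.63 ± 0.40, adjusted p = 0.0049) and TRIM47 (1.13 ± 0.32, adjusted p = 0.018) ended without some single library, with adjusted p up to 0.095 and 0.18.

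The 1 stress gene called in dLRRS cells was STC2, with 10.8, 11.1 and 8.69 CPM with DMSO and 15.1, 16.2 and 15.5 CPM with ligand (0.62 ± 0.11, adjusted p = 6.9e-05). The groups did not overlap, and without DMSO replicate 3 its fold change was no longer past the threshold.

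In LF, SF and dCxxC cells the ligand called 0 of the 42 genes in each, against 0.00629%, 0.0189% and 0.0189% of genes called higher. At an unadjusted p under 0.05, 6 were higher and 1 lower in LF, 5 and 3 in SF, and 2 and 1 in dCxxC cells, and DESeq2 called 0 in each.

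By a test of the difference itself, the ligand effect was lower than in EV cells for 3 genes in LF (0.641% of genes), 6 in SF (0.641%) and 7 in dCxxC cells (1.43%), comparisons that share the EV libraries. NAT8L, which makes N-acetylaspartate, was called in all 3. Its EV libraries had 13.5, 12.8 and 13 CPM with DMSO and 13.2, 22.4 and 23.1 CPM with ligand, where the first ligand library overlapped DMSO, and its ligand effect was 0.72 ± 0.12 in EV, -0.08 ± 0.12 in LF, 0.07 ± 0.12 in SF and -0.13 ± 0.10 in dCxxC cells. TUBB4A was called in all 3 too, with effects of 0.84 ± 0.15, -0.06 ± 0.18, -0.09 ± 0.19 and -0.21 ± 0.12 in that order.

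P3H3, of the prolyl 3-hydroxylase family, had the largest difference among the called genes in LF cells (-1.38 ± 0.25, adjusted p = 0.00087) and LARGE2 in SF cells (-1.73 ± 0.30, adjusted p = 0.00073). In dCxxC cells FZD8 (-1.84 ± 0.42, adjusted p = 0.0069) and EEF1A2 (-1.38 ± 0.11, adjusted p = 3.7e-12) led. Of these calls, 1 in LF (TUBB4A), 4 in SF (TUBB4A, RND2, MYCL and NAT8L) and 3 in dCxxC cells (LARGE2, P3H3 and SLC2A4, the glucose transporter GLUT4) ended without some single library.

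The lines also differed without ligand. With DMSO, 13 genes were higher in LF than in EV cells (6.9% of genes) and 8 lower (8.36%), and all 5 stress genes were among those higher. Of these 21 calls, 3 ended without some single library. STC2 had 17, 15.4 and 14.9 CPM in EV and 54, 73.1 and 69.4 CPM in LF cells (2.09 ± 0.09, adjusted p = 2.1e-22). PCK2 had 42.2, 43 and 47.4 CPM and 104, 163 and 159.7 CPM (1.73 ± 0.12, adjusted p = 2.6e-11). In both genes every LF library was above every EV library. SLC38A2 gave 1.67 ± 0.08, HERPUD1 1.39 ± 0.06 and KLHL24 1.20 ± 0.06 (adjusted p = 1.2e-15, 1.2e-21 and 7.1e-20).

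Of the other genes higher in LF cells, IL20RB had 3.8, 4.47 and 4.11 CPM in EV and 11.3, 25 and 23 CPM in LF cells (2.29 ± 0.19, adjusted p = 3.9e-12), without overlap. MYCL (1.38 ± 0.12, adjusted p = 1.6e-12) and FUT1 (1.14 ± 0.12, adjusted p = 3.8e-10) were higher as well. EEF1A2 went the other way, at 2.24, 2.08 and 1.79 CPM in LF cells against the EV values above (-3.48 ± 0.14, adjusted p = 7.9e-24), and RCN3 was lower too (-2.41 ± 0.57, adjusted p = 0.00066). On the integrated stress response list, 46 of 59 tested genes were called higher in LF than in EV cells, against 6.9% of all genes.

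In SF cells, 11 genes were higher than in EV cells (4.17%) and 18 lower (9.47%), again with all 5 stress genes higher. Of these 29 calls, 10 ended without some single library. SLC38A2 led, with 332, 307 and 342 CPM in EV and 848, 799 and 780.5 CPM in SF cells (1.34 ± 0.08, adjusted p = 1.8e-13). STC2 had the smallest fold change of the 5 (0.64 ± 0.10, adjusted p = 5.5e-07) and was not past the threshold without SF DMSO replicate 2. Unlike in LF cells, FUT1 was lower (-0.59 ± 0.14, adjusted p = 0.00053), at the edge of the fold threshold, and IL20RB was not called (-0.26 ± 0.23, adjusted p = 0.4).

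In dLRRS cells, 5 genes were higher (4.82%) and 12 lower (7.13%) than in EV cells, and 8 of these 17 calls ended without some single library. Of the stress genes 0 were called higher, with 1 higher and 3 lower at an unadjusted p under 0.05 and 0 higher and 1 lower by DESeq2, and STC2 was lower (-0.62 ± 0.11, adjusted p = 1.1e-05), a call that ended without EV replicate 1 or dLRRS replicate 3. KLHL29 was higher, at 1.5, 0.929 and 1.7 CPM in EV and 3.3, 4.06 and 3.54 CPM in dLRRS cells (1.47 ± 0.23, adjusted p = 1.4e-06), and EEF1A2 lower (-3.25 ± 0.12, adjusted p = 4.7e-24).

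In dCxxC cells, 18 genes were higher (10.3%) and 4 lower (8.93%) than in EV cells, and 4 of these 22 calls ended without some single library. Of the 5 stress genes 0 were called, with 3 higher at an unadjusted p under 0.05 and 0 by DESeq2. EEF1A2 was at 186, 194 and 189 CPM (3.05 ± 0.08, adjusted p = 8.4e-31), and KLHL29 at 9.69, 11.2 and 12.3 CPM (3.08 ± 0.19, adjusted p = 3.5e-17), without overlap with EV cells in either. FZD8 (2.42 ± 0.30, adjusted p = 7.5e-09) and TUBB4A (1.55 ± 0.14, adjusted p = 1.0e-12) followed among named genes. All 4 comparisons of lines share the EV libraries with DMSO, and in them line and construct cannot be told apart.

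**Figure D3:**
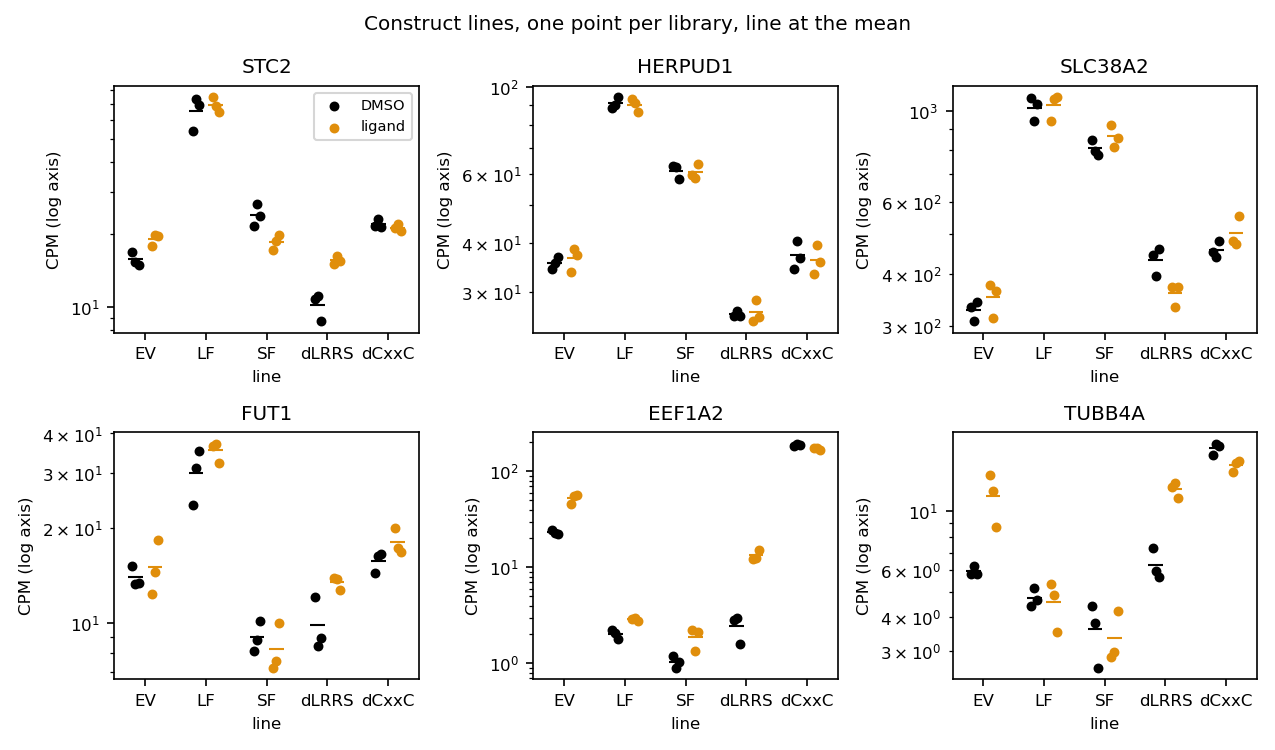
CPM on a log axis in each library of the construct table, with DMSO or ligand, for 6 of the 42 genes, with a line at the mean of 3 libraries. STC2 is highest in LF cells, and EEF1A2 in dCxxC cells, where its DMSO libraries lie between 186 and 194 CPM.

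In the inhibitor table, ligand called 10 of 39 tested genes higher and 0 lower, against 2.31% of 13374 genes called higher. Of the 5 stress genes 0 were called, 1 was higher at an unadjusted p under 0.05 and DESeq2 called 0. EEF1A2 had 11.3, 10.7 and 10.9 CPM with DMSO and 37.4, 43.9 and 42.5 CPM with ligand (1.90 ± 0.11, adjusted p = 5.8e-08), and RCN3 had 2.06, 1.34 and 0.756 CPM and 3.99, 5.16 and 4.87 CPM (1.72 ± 0.29, adjusted p = 0.0025). Neither overlapped. LARGE2 (1.46 ± 0.25, adjusted p = 0.0031) followed, and 5 of the 10 calls, MYORG and NAT8L among them, ended without some single library.

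GSK343 alone called 7 genes higher, against 4.29% of genes, and 0 lower. They were LARGE2, MAP3K21, FUT1, TUBB4A, EEF1A2, NAT8L and LONRF1, a ubiquitin ligase. FUT1, not called with ligand, had 12.8, 12.6 and 12.2 CPM with DMSO, 11.9, 12 and 13.2 CPM with ligand and 42.4, 22.6 and 20.4 CPM with GSK343 (1.09 ± 0.23, adjusted p = 0.008), the first GSK343 library being highest. The calls of LARGE2, MAP3K21 and LONRF1 ended without some single library. Of the stress genes 0 were called, 4 were higher at an unadjusted p under 0.05 and DESeq2 called 0, the largest being PCK2, with 44, 47 and 39.5 CPM with DMSO and 72.4, 61.3 and 53 CPM with GSK343 (0.48 ± 0.12, adjusted p = 0.017).

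Ligand with GSK343 called 26 of 39 higher, against 9.53% of genes, and 0 lower, all of them outside the stress genes, of which 3 were higher at an unadjusted p under 0.05 and DESeq2 called 0. MAP3K21 had 1.08, 0.31 and 0.54 CPM with DMSO, 1.83, 1.72 and 1.32 CPM with ligand, 1.41, 2.14 and 1.27 CPM with GSK343 and 6.87, 4.76 and 5.7 CPM with both (3.06 ± 0.33, adjusted p = 4.8e-06 for both against DMSO). The libraries with both agents lay above all others. EEF1A2 had 55.8, 63.8 and 61.4 CPM with both (2.40 ± 0.11, adjusted p = 6.9e-10). Of the 26 calls, 6 ended without some single library. The 3 comparisons share the DMSO libraries, and whether the joint effect differs from the sum of the single ones was not tested.

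In mAID cells of the J2_7 table, ligand called 6 of 34 tested genes higher, against 2.13% of 14649 genes, and 0 lower. They were RCN3, LARGE2, TUBB4A, EEF1A2, PPM1J and GLIPR2. EEF1A2 had 11.3, 14.5 and 12.3 CPM with DMSO and 37.8, 39.9 and 33.1 CPM with ligand (1.57 ± 0.12, adjusted p = 4.1e-10), and RCN3 had 1.04, 1.15 and 0.486 CPM and 3.11, 2.61 and 3.02 CPM (1.77 ± 0.35, adjusted p = 0.0016), both without overlap. The call of PPM1J ended without some single library. Of the stress genes 0 were called, 1 was higher at an unadjusted p under 0.05 and DESeq2 called 0.

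In J2_7 cells, ligand called 9 of 34 higher, against 2.16% of genes, and 0 lower, with 0 stress genes, 0 of them higher at an unadjusted p under 0.05 and 0 by DESeq2. EEF1A2 had 17.4, 17.3 and 17.3 CPM with DMSO and 59, 57.3 and 51.9 CPM with ligand (1.71 ± 0.11, adjusted p = 5.4e-12), and LARGE2 had 0.582, 0.851 and 0.862 CPM and 1.84, 1.88 and 2.31 CPM (1.44 ± 0.30, adjusted p = 0.0035). Neither overlapped. The calls of LARGE2, RCN3, MAP3K21, TUBB4A and FZD8 ended without some single library. Whether the ligand effect differs between mAID and J2_7 cells was not tested.

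Ligand with GSK343 in mAID cells called 16 of 34 higher, against 5.5% of genes, and 0 lower, with 0 stress genes, of which 0 were higher and 1 lower at an unadjusted p under 0.05 and DESeq2 called 0. RCN3 had 2.6, 5.09 and 3.22 CPM (2.18 ± 0.34, adjusted p = 3.2e-05) and EEF1A2 50.1, 47.9 and 41.6 CPM (1.92 ± 0.12, adjusted p = 1.2e-12), all above the DMSO libraries. Of the 16 calls, 5 ended without some single library. GSK343 alone called 0, against 0.601% of genes called higher, with 9 higher and 2 lower at an unadjusted p under 0.05 and 0 by DESeq2. These comparisons share the DMSO libraries with the ligand comparison.

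Over the 5 ligand comparisons with separate DMSO libraries (EV, dLRRS, inhibitor table, mAID and J2_7 cells), EEF1A2, LARGE2, RCN3 and TUBB4A were called higher in all 5, and NAT8L and PPM1J in 4. These 6 are 18.2% of the 33 genes of the set tested in all 5, against 1.43% of 11453 genes. With each library of a comparison left out in turn, EEF1A2 kept all 5 calls. The call of RCN3 ended in EV, dLRRS and J2_7 cells, and those of LARGE2 (without J2_7 ligand replicate 3) and TUBB4A in J2_7 cells. That of PPM1J ended in EV, dLRRS and mAID cells, and that of NAT8L in the inhibitor table. The share was not tested, because the set was chosen for higher levels after KDM2B loss. At the other end, 19 of the 42 were called in none, 4 stress genes and 15 others. Some of these 15 were not tested in all 5 comparisons. PDK4 and TMEM163 were tested in 2, an lncRNA without a gene name and a pseudogene in 3, and CRYBA4 in 4. The share of all genes called in none was not counted.

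**Figure D4:**
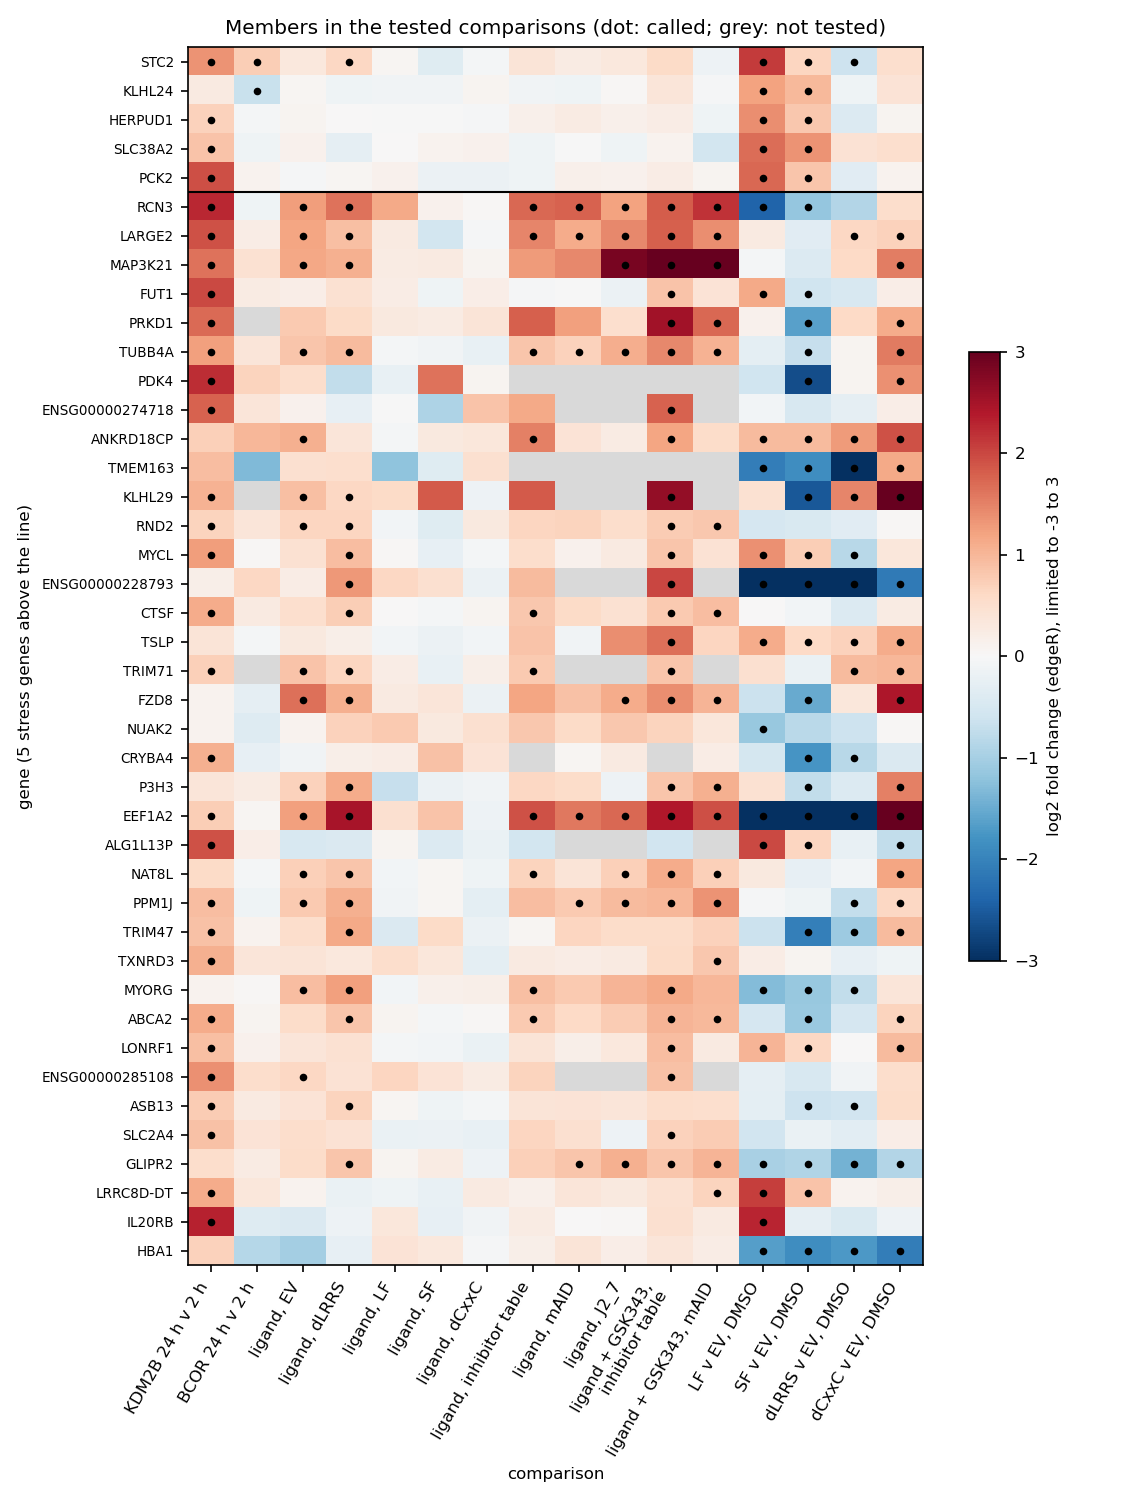
Log2 fold change (colour) of the 42 genes, stress genes apart from the others, in 16 comparisons, with marks where a gene was called and grey where it was not tested. All 5 stress genes are called in LF cells against EV cells, and 4 at 24 h against 2 h in KDM2B-mAID cells, while EEF1A2, LARGE2, RCN3 and TUBB4A are called in all 5 ligand comparisons named above.

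The 358 genes that passed the KDM2B thresholds with a BCOR ratio above the band give a scale for these counts. Of them, 279 of 358 were called higher at 24 h than at 2 h in the KDM2B table and 93 of 349 in the BCOR table, beside 30 of 42 and 1 of 39 for the genes described here. With ligand, 196 of 357 were called in EV cells, 190 of 357 in dLRRS cells and 155 of 347 in the inhibitor table, beside 15 of 42, 21 of 42 and 10 of 39. These are values side by side, and the difference was not tested. The sets were divided by ratio in the same BCOR time course, so the choice itself favours fewer BCOR-table calls among the genes described here.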

How the data were processed

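The members and gene lists were chosen with earlier results of these data known. The authors deposited whole-number counts per gene for the BCOR, KDM2B, construct and inhibitor tables and estimated counts for the J2_7 table, which were rounded here. Per the labels' protocols, RNA was extracted with RNeasy, libraries were made with KAPA RNA HyperPrep with ribosomal depletion and sequenced on a NextSeq500, and reads were aligned to hg38 with STAR or handled with Avadis NGS. The labels name Smart-3SEQ for the J2_7 table, and the submitters' processing notes name Trim Galore 0.6.7 and DESeq2. The counting program, its strand setting and the annotation are not given in the sources, so overlapping and antisense genes cannot be told apart.

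CPM is a count divided by its column total. Each table was fitted whole with edgeR 4.0.16 in R 4.3.3 (filterByExpr, TMM factors, robust quasi-likelihood F test, no covariates), with Benjamini-Hochberg adjustment over all genes tested with a call needing adjusted p below 0.05 and a log2 fold change beyond 0.585 in size. SE was taken as the size of the fold change over the root of its F value. The steps were tested on simulated data. DESeq2 1.42.0, other scaling, no filter, only the groups compared, leaving out each library, and a replicate block were tried. The comparisons of 8 h with 2 h, of SF and dLRRS with EV cells, and of GSK343 in mAID cells were added after seeing the data.

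Genes named are the stress genes, the 15 others with the largest ratio, genes on a list, up to 4 called genes with the largest fold change per comparison (at least 2 CPM in 1 group), and those nearest each threshold; names of clones, pseudogenes and antisense RNAs were counted only. Others, such as NAT8L and TRIM47, were named after their values were seen. Replicate numbers came from the labels in the BCOR and J2_7 tables only. Libraries were taken as pairs where the correlation of same-numbered deviations was over 0.1 for every number. This held between 8 h and 2 h of the BCOR table (0.14, 0.111 and 0.163) but not between 24 h and 2 h (0.034, 0.0632 and 0.11) or in the J2_7 comparisons. Promoter windows were RefSeq's on GRCh38.p14, and no coordinates of another build were used.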

Additional observations from a re-analysis of the deposited data

Results flagged for a closer look

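The ligand effect was lower than in EV cells, by the edgeR test of the difference, for 16 combinations of gene and line, on the log2 scale and with the EV libraries shared. In LF cells the differences were -0.90 for TUBB4A, -1.38 for P3H3 and -0.81 for NAT8L. In SF cells they were -1.73 for LARGE2, -0.94 for TUBB4A, -0.68 for STC2, -0.996 for RND2, -0.70 for MYCL and -0.65 for NAT8L. In dCxxC cells they were -1.23 for LARGE2, -1.06 for TUBB4A, -1.84 for FZD8, -0.78 for P3H3, -1.38 for EEF1A2, -0.86 for NAT8L and -0.76 for SLC2A4. Of these genes STC2 alone is a stress gene. Its ligand effect was 0.31 in EV and -0.36 in SF cells, and it was called in neither.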

How the results depend on the processing

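The rule gave 50 genes with TMM-scaled CPM, 34 with a pseudocount of 1, and 34 to 58 with a single library left out. Fitting only the groups compared gave 3 calls in place of 6 for the ligand effect in SF minus EV cells and 3 in place of 7 for GSK343 in the inhibitor table. Without the filter on low counts, GSK343 in mAID cells gave 2 calls in place of 0. With a single library left out, calls ranged from 1 to 2 for BCOR 24 h against 2 h, 2 to 6 for SF minus EV, 4 to 9 for dCxxC minus EV, 6 to 9 for ligand and 4 to 7 for GSK343 in the inhibitor table, 0 to 1 for GSK343 in mAID cells and 0 to 1 for BCOR 8 h against 2 h. Calls in this paragraph are counted in 1 direction, lower for effects minus EV and higher elsewhere. The replicate block gave 1 call in place of 0 for BCOR 8 h against 2 h, where libraries were taken as pairs by number. Elsewhere samples share only a number. There the block gave 1 call higher for BCOR 24 h against 2 h, beside 1 lower (KLHL24). In mAID cells it gave 6 for ligand, 17 for ligand with GSK343 and 0 for GSK343. In J2_7 cells it gave 9 for ligand. Direction was checked for called stress genes and up to 4 called genes with the largest fold change per comparison, and none reversed. For libraries left out, that check used a single fit per gene. The cause of these shifts was not tested. Depth limits the genes under 10 CPM most, and the shallowest libraries, at 782905 and 2346542 counts, are in the J2_7 and construct tables.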
